A study of Homo sapiens with 6 samples.

Results

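The BCL2 family decides whether the outer mitochondrial membrane stays intact, and 10 of its genes are described here across 6 RNA sequencing libraries. The members were chosen by name (PMAIP1, BBC3, BCL2, BCL2L1, MCL1, BAX, BAK1, BCL2L11, BID and BAD) out of 58735 features of a count table, and each matched 1 row of it. The rule uses names only, but the members were chosen with earlier results of these data known, so they are not a blind pick. All 10 had enough reads to be among the 16210 genes tested. The cells are labelled BE(2)-C, a human neuroblastoma line, grown in DMEM with calf serum. In the NS group (genotype label Wildtype, n = 3 libraries) they carried a non-silencing lentiviral hairpin. In the shACSS2 group (genotype label ACSS2 deficiency, n = 3 libraries) the hairpin was directed at ACSS2, an enzyme that makes acetyl-CoA from acetate in the cytosol and nucleus. Both groups were infected with lentivirus and kept as puromycin-selected stable lines. The sources used here do not say whether a line is clonal or whether its libraries came from separate cultures, so a p-value here speaks only of the spread among these libraries, which may be technical. The titles write siACSS2 for what the treatment text describes as a hairpin, and that text once names the line shNgBR.

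Proteins of this family fall into 3 roles. Guardians (BCL2, BCL2L1, which encodes BCL-xL, and MCL1) hold the effectors in check. Effectors (BAX and BAK1) form pores in the outer mitochondrial membrane through which cytochrome c escapes and caspases become active. BH3-only proteins (PMAIP1, also called NOXA, BBC3, also called PUMA, BCL2L11, also called BIM, BID and BAD) bind guardians or effectors and tip the balance toward death. Neuroblastoma cells are known for leaning on BCL2 or MCL1 for survival. Messenger RNA counts cannot separate splice forms such as BCL-xL and BCL-xS, and they say nothing of protein, which for MCL1 and NOXA turns over quickly.

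In shACSS2, 3 of the 10 members rose and 0 fell. PMAIP1 rose 1.63-fold, BAK1 1.45-fold and BCL2L11 1.27-fold, while none of the 3 guardians passed the test. Among all genes tested, 7.48% rose, 9.64% fell and 17.1% changed in either direction (adjusted p under 0.05 by the Benjamini-Hochberg method, from the quasi-likelihood test of edgeR). DESeq2 and limma voom also called 3 members higher and 0 lower. At an unadjusted p under 0.05 edgeR had 4 members higher and 0 lower. Over all genes, 5306 of the 16210 tested were past that threshold in either direction. The median log2 fold change was 0.14 over the members and 0.00245 over all genes tested. With library totals in place of TMM composition factors the members' median was 0.07 and that of all genes −0.07, and 2 members were called higher. That scaling also moved the calls over all genes from 1213 higher and 1563 lower to 734 higher and 2108 lower. In 6 of the 10 members the normalised values of the groups did not overlap, against 36.3% of all genes tested.

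The labels and libraries were checked first. ACSS2 was counted 366, 387 and 438 times in the NS libraries and 75, 84 and 110 times in those of shACSS2, a log2 fold change of −1.94 (SE 0.145, adjusted p by edgeR = 1.95e-06). An exact two-sided permutation test of its log2 CPM gave p = 0.1, the smallest value 3 against 3 libraries allow. Library totals ran from 16617885 to 20831599 counts. Of 14 markers of adrenergic neuroblastoma, 5 had 0 counts in every library (PHOX2A, TH, SOX11 and TFAP2B among them) and 3 had a mean of at least 5 CPM. Of 8 markers of embryonic kidney 0 were at 0 in every library and 7 averaged 5 CPM or more, and for the 8 of mesenchymal neuroblastoma these numbers were 0 and 6. GATA3 is in both the adrenergic and the kidney list. The summed level of the adrenergic list was 81.4 to 85.9 CPM in NS and 85.1 to 109 CPM in shACSS2. Summed markers of mesenchymal neuroblastoma ran from 464 to 529 and from 423 to 486 CPM, those of embryonic kidney from 171 to 179 and from 151 to 175 CPM, Schwann or glial markers from 15.1 to 20.7 and from 16.1 to 17.3 CPM, and blood markers from 2.52 to 3.50 and from 2.43 to 3.43 CPM. MYCN, which is in the adrenergic list, averaged 1.28 CPM over the 6 libraries. With 5 adrenergic markers at 0 counts and MYCN at 7 to 40 counts per library, the identity of the cells needs a check. Whether they are the labelled line was not tested. The part of these markers in the results was not tested either. Replicate 1 of shACSS2 stands apart: across 16201 genes its deviation from the group mean had a Spearman coefficient with GC content of −0.603, against 0.475 and 0.388 in shACSS2 replicates 2 and 3 and −0.0896 to 0.112 in NS. Without it 4 members and 3931 genes in all were past the test, against 3 and 2776 with every library. Values without this library stand beside the members it moves across the threshold. In bulk libraries a change in the share of cells that express a gene and a change in RNA per cell cannot be told apart.

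The promoters of the 3 members that rose are shown because these are the members past the test. Each window runs from 250 bases before to 50 after the start that RefSeq gives on GRCh38.p14, and capitals mark CCAAT or TGACG, a part of the CRE, the site bound by CREB and ATF factors, on either strand.
PMAIP1, chr18:59899746-59900045, plus strand: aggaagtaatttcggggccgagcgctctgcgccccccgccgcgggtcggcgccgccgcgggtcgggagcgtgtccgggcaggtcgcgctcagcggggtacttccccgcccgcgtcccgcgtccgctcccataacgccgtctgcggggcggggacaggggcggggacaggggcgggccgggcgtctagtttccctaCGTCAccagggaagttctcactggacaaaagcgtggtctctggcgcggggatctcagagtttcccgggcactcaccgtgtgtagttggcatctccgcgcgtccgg
BAK1, chr6:33580227-33580526, minus strand: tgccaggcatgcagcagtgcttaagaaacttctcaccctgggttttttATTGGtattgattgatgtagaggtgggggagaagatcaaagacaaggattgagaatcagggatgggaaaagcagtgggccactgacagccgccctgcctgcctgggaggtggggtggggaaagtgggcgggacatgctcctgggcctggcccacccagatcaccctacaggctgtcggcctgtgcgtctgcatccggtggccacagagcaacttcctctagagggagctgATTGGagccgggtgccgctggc
BCL2L11, chr2:111120664-111120963, plus strand: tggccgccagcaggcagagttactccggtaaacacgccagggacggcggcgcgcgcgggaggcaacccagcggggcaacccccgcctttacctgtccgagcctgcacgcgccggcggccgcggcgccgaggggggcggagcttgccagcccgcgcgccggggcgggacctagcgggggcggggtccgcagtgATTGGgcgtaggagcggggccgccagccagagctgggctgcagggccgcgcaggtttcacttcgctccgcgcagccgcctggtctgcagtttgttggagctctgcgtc
RefSeq windows were held for 9 of the 10 members, and MCL1 had none to search. There were 15 windows in all, of which BID has 5 and BAD and BCL2L1 have 2 each, some overlapping. The full CRE, TGACGTCA, was in none of these 15 and in 1.85% of all 35116 promoter windows of this length. The shorter TGACG, which the full site contains, was in PMAIP1, BAD, BAX, BCL2 and BCL2L1, in 6 of the 15 windows and in 24.6% of all windows. CCAAT was in BAK1, BCL2L11, BAD, BAX and BBC3, in 6 of the 15 windows and in 34.6% of all. The GC box GGGCGG was in all 3 members that rose, in 7 members altogether, in 11 of the 15 windows and in 45.0% of all windows. The E-box CACGTG was in BAX, BBC3 and BID, in 4 of the 15 windows and in 7.26% of all windows. Both strands were searched for each of these motifs. These matches describe letters in the windows.

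Of the BH3-only members, PMAIP1 had the largest fold change. Its gene (ENSG00000141682) lies on chromosome 18 (59899948 to 59904306, plus strand, GRCh38) and encodes NOXA, which binds MCL1 and marks it for degradation. The counts were 2207, 2698 and 2602 in NS and 4085, 3164 and 3289 in shACSS2. After normalisation these were 126, 143 and 120 CPM (CPM scales counts to library size, here with TMM factors) against 254, 193 and 184 CPM. Every shACSS2 library lay above every NS library, and shACSS2 replicate 1 was the highest. The mean rose from 129 ± 11.7 to 211 ± 38.1 CPM (SD, n = 3 each), a log2 fold change of 0.70 (SE 0.121, 95% interval 0.45 to 0.96, edgeR adjusted p = 0.00141). Without shACSS2 replicate 1 it was 0.55 (SE 0.0795, adjusted p by edgeR = 0.000198), and leaving out any other library gave 0.65 to 0.79.

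BCL2L11 (ENSG00000153094, chromosome 2, 111119378 to 111168447, plus strand, GRCh38) encodes BIM, which can bind every guardian and can activate BAX and BAK1 directly. It had 535, 534 and 650 counts in NS and 659, 594 and 636 in shACSS2. Normalised, NS stood at 30.46, 28.21 and 29.97 CPM and shACSS2 at 41.03, 36.33 and 35.62 CPM. The groups did not overlap, although the raw counts did. BCL2L11 rose by 0.35 on the log2 scale (SE 0.107, 95% interval 0.12 to 0.58, edgeR adjusted p = 0.0354). Leaving out NS replicate 1, 2 or 3 or shACSS2 replicate 2 or 3 ended the call, at 0.31 to 0.39 and adjusted p from 0.0562 to 0.117. Without shACSS2 replicate 1 it held (0.29, adjusted p = 0.0338), and with library totals it was lost (0.28, adjusted p = 0.0917). The long noncoding gene MIR4435-2HG overlaps it on the other strand with 1049 counts over all libraries. Whether the counting used strand was not given in the sources used here.

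BBC3 (chromosome 19, 47220822 to 47232766, minus strand) encodes PUMA, which binds all guardians. It did not pass the test. Its libraries gave 25.4, 23.8 and 24.3 CPM in NS and 25.2, 33.1 and 33.1 CPM in shACSS2. Replicates 2 and 3 of shACSS2 were above all NS libraries, and replicate 1 lay among them. The log2 fold change was 0.31 (SE 0.124, 95% interval 0.05 to 0.58, edgeR adjusted p = 0.0913). Without shACSS2 replicate 1 it was 0.43 and past the test (SE 0.0954, adjusted p = 0.00408), as it was after an offset for GC content and gene length (0.36, adjusted p = 0.00561). GC content was 69.7% in the BBC3 transcript and 37.2% in that of PMAIP1, the members with the highest and lowest values, and the median over tested genes was 48.6%. The part of base composition in the values of that library was not tested.

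BID (chromosome 22, 17734138 to 17774770, minus strand) and BAD (chromosome 11, 64269830 to 64284704, minus strand) did not pass the test either. BID, which caspase-8 cuts to carry a death-receptor signal to mitochondria, had 37.40, 40.05 and 39.19 CPM in NS and 39.17, 44.95 and 43.74 CPM in shACSS2. Its log2 fold change was 0.13 (SE 0.103, 95% interval −0.09 to 0.35, edgeR adjusted p = 0.402). BAD, which is held inactive by 14-3-3 proteins when phosphorylated, had 21.6, 25.4 and 21.2 CPM in NS and 21.5, 27.8 and 26.4 CPM in shACSS2. Its log2 fold change was 0.15 (SE 0.129, 95% interval −0.12 to 0.42, edgeR adjusted p = 0.446), with GPR137 on the opposite strand at 4076 counts over all libraries. For both genes the groups overlapped, and the intervals leave room for a change of up to 1.28-fold in BID and 1.34-fold in BAD.

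**Figure D1:**
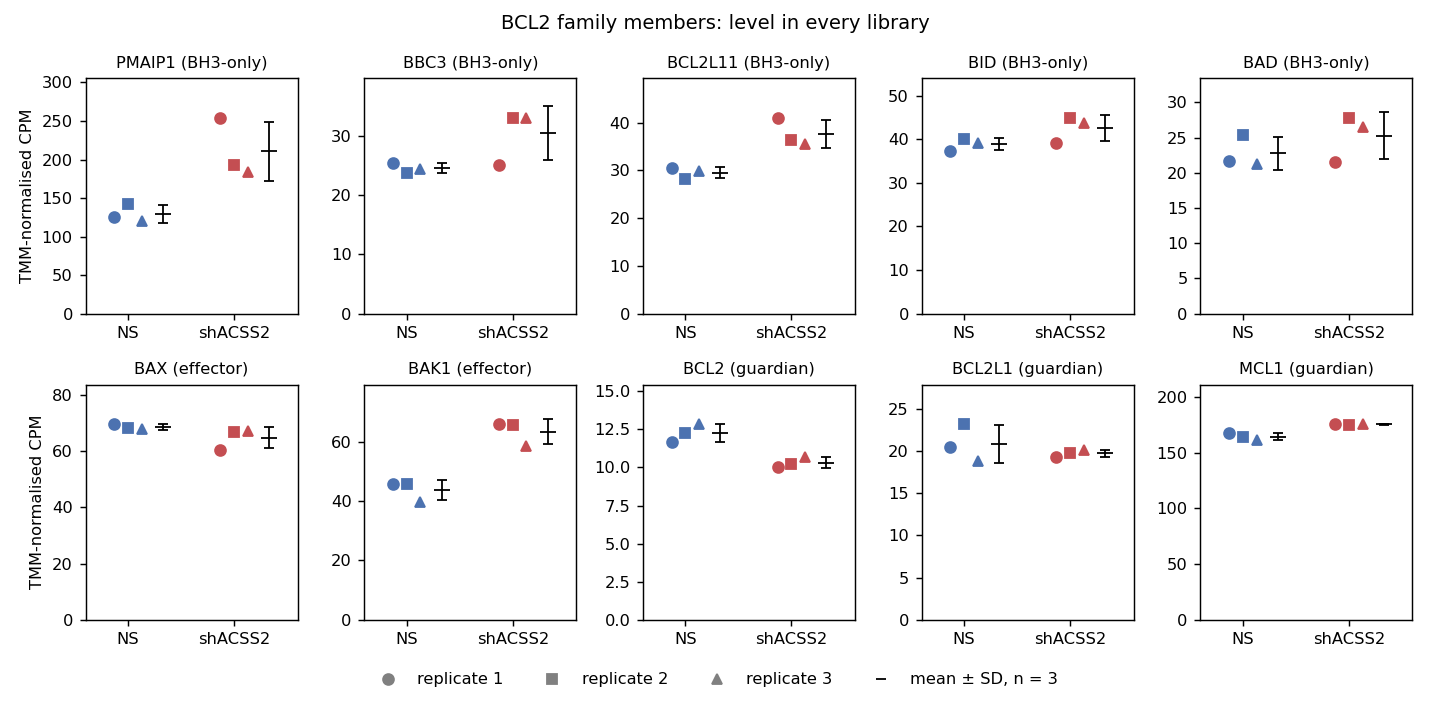
Level of each member (vertical axis, TMM-normalised CPM, from 0) in the NS and shACSS2 libraries (points, shaped by replicate number), with mean ± SD of n = 3 beside them. PMAIP1, BAK1 and BCL2L11 lie higher in all 3 shACSS2 libraries. BBC3, BAD, BID, BAX, BCL2 and BCL2L1 lie lower in shACSS2 replicate 1 than in replicates 2 and 3.

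The effectors parted. BAK1 (ENSG00000030110, chromosome 6, 33572547 to 33580293, minus strand, GRCh38), the effector that resides on mitochondria, had 802, 865 and 861 counts in NS and 1061, 1073 and 1047 in shACSS2. That is 45.7, 45.7 and 39.7 CPM against 66.1, 65.6 and 58.6 CPM, with no overlap in raw or normalised values. The mean rose from 43.7 ± 3.46 to 63.4 ± 4.17 CPM (SD, n = 3 each), a log2 fold change of 0.54 (SE 0.104, 95% interval 0.32 to 0.76, edgeR adjusted p = 0.00318). Leaving out each library in turn gave 0.47 to 0.59, all past the test.

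BAX (chromosome 19, 48954815 to 48961798, plus strand), which shuttles from the cytosol to mitochondria, had 69.7, 68.0 and 67.9 CPM in NS and 60.3, 66.7 and 67.1 CPM in shACSS2. All shACSS2 values lay just below NS. The log2 fold change was −0.08 (SE 0.0953, 95% interval −0.28 to 0.12, edgeR adjusted p = 0.589), so an increase like that of BAK1 lies outside the interval for BAX. BOK, another effector-like protein that is not among the 10 members, was scarce at 2.23 ± 0.158 CPM in NS and 3.30 ± 1.09 CPM in shACSS2 (± SD of 3 libraries), which edgeR put at 0.57 in log2 units (SE 0.272, adjusted p = 0.156). It passed the test without shACSS2 replicate 1 (0.82, adjusted p = 0.0252). BAK1P1, a pseudogene of BAK1, had 31 counts over all libraries.

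Among guardians none of the 4 tested (BCL2, BCL2L1, MCL1 and BCL2L2) rose or fell, and none did at an unadjusted p under 0.05 or with DESeq2 or voom. On GRCh38 the minus strand holds MCL1 on chromosome 1 (150574551 to 150579738), BCL2 on chromosome 18 (63123346 to 63320128) and BCL2L1 on chromosome 20 (31664452 to 31723989), where the antisense gene ABALON had 142 counts over all libraries. MCL1, a short-lived guardian that NOXA and BIM bind, had 167, 164 and 161 CPM in NS and 176, 175 and 176 CPM in shACSS2. All 3 shACSS2 libraries were above NS, with a log2 fold change of 0.10 (SE 0.0872, 95% interval −0.09 to 0.28, edgeR adjusted p = 0.481). BCL2, the founding guardian, had 205, 232 and 279 counts in NS and 161, 167 and 191 in shACSS2. That is 11.7, 12.3 and 12.9 CPM against 10.0, 10.2 and 10.7 CPM, all lower in shACSS2. Its log2 fold change was −0.25 (SE 0.135, 95% interval −0.54 to 0.03, edgeR adjusted p = 0.211), and −0.11 after the offset for GC content and length. BCL2L1 overlapped between groups, at 20.5, 23.2 and 18.8 CPM in NS and 19.3, 19.8 and 20.1 CPM in shACSS2 (log2 fold change −0.08, SE 0.121, 95% interval −0.33 to 0.18, edgeR adjusted p = 0.706). BCL2L2, which encodes BCL-w, had a log2 fold change of 0.08 (SE 0.137, adjusted p by edgeR = 0.72). BCL2A1 and BCL2L10 had 2 counts each over all libraries and were not tested.

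**Figure D2:**
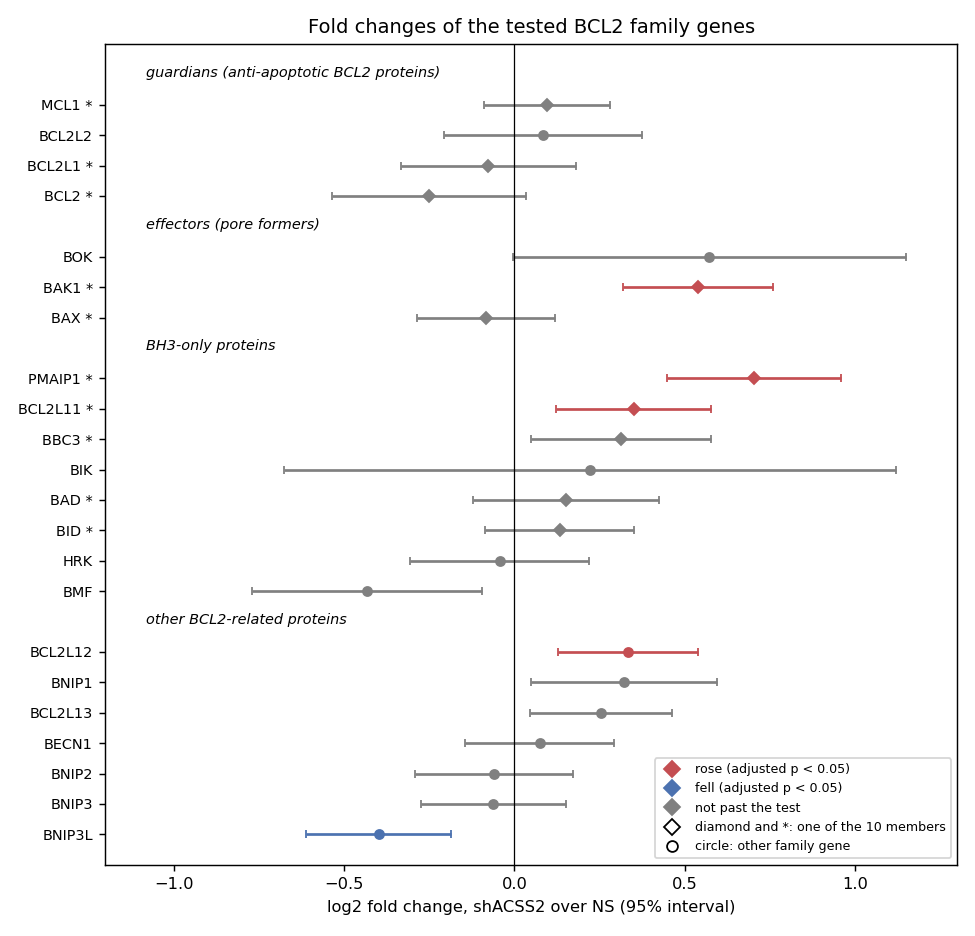
Log2 fold change of shACSS2 over NS (horizontal axis, with 95% intervals) for the 22 tested genes of the 4 family lists, grouped by role, with the 10 members as diamonds. PMAIP1, BAK1, BCL2L11 and BCL2L12 rose, BNIP3L fell, and the intervals of the 4 guardians include 0.

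Ratios of read counts within a library do not depend on the scaling between libraries. A deviation linked to GC content, like that of shACSS2 replicate 1, can remain in them, and its part was not tested. The ratios are not per length, so only their change between libraries is read here. PMAIP1 over MCL1, a BH3-only protein over its main partner, stood at 0.750, 0.869 and 0.743 in NS and at 1.45, 1.11 and 1.05 in shACSS2. BAK1 over BAX stood at 0.6552, 0.6716 and 0.5845 in NS and at 1.09, 0.984 and 0.874 in shACSS2. BCL2L11 over BCL2 stood at 2.61, 2.30 and 2.33 in NS and at 4.09, 3.56 and 3.33 in shACSS2. In all 3 ratios every shACSS2 library was above every NS library, by 1.51-fold, 1.54-fold and 1.51-fold on average (geometric means). BCL2L11 over BCL2L1 and BAK1 over MCL1 were also computed. They had smaller changes, of 1.34-fold and 1.36-fold, again without overlap between the groups. These pairs were picked after the members' values were seen, so the ratios carry no test.

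**Figure D3:**
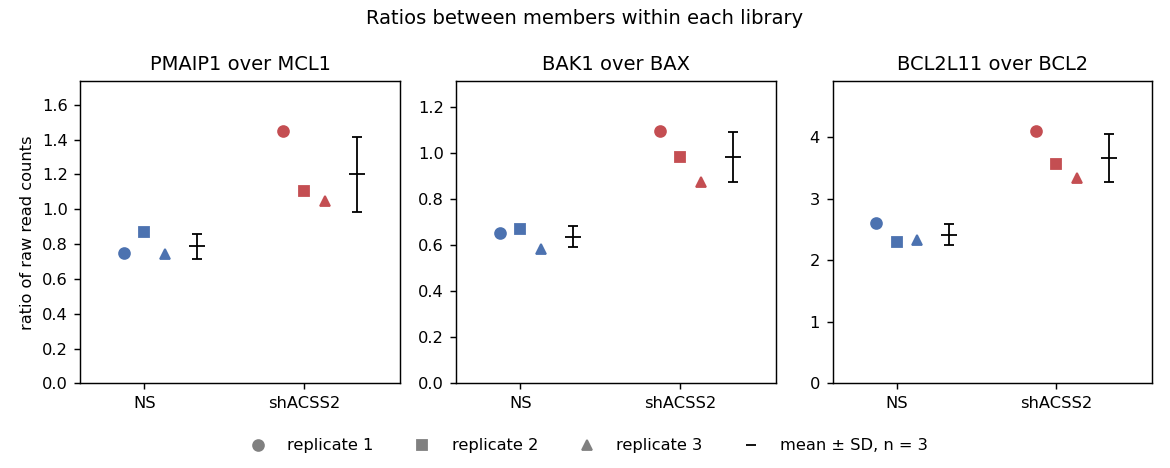
Ratio of raw read counts between 2 members (vertical axis, no unit, from 0) in each NS and shACSS2 library (points, shaped by replicate number), with mean ± SD of n = 3. The 3 shACSS2 values lie above the 3 NS values in each panel.

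Levels were also set per kilobase of annotated exon, which allows genes to be ordered. In NS the order was PMAIP1 at 57.9 ± 5.26, MCL1 at 37.6 ± 0.698, BAX at 26.5 ± 0.381, BAK1 at 19.7 ± 1.56 and BAD at 13.3 ± 1.36 CPM per kilobase (SD, n = 3 each). BID followed at 8.74 ± 0.303, BBC3 at 7.71 ± 0.268, BCL2L1 at 6.28 ± 0.674, BCL2L11 at 4.44 ± 0.177 and BCL2 at 1.04 ± 0.0507 CPM per kilobase. No neighbours in this order overlapped in NS. In shACSS2 BAK1 stood at 28.7 ± 1.88 and BAX at 25.0 ± 1.47 CPM per kilobase, so their order turned, and BID overlapped BBC3 and BCL2L1 overlapped BCL2L11. Annotated exon length counts all annotated exons of a gene, whether or not these cells use them, so the long annotation of BCL2 (11765 bases, against 2235 for PMAIP1) lowers its value.

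Of 16 further listed genes, 12 were tested, with 1 rise, 1 fall and 10 not past the test. BCL2L12, a BCL2-like protein, rose from 65.8 ± 5.02 to 82.8 ± 1.76 CPM (± SD of 3 libraries), which edgeR put at 0.33 in log2 units (SE 0.0968, adjusted p = 0.0279). BNIP3L, a mitochondrial receptor for mitophagy, fell from 110 ± 4.61 to 83.4 ± 8.37 CPM (−0.40 in log2 units, SE 0.1, adjusted p by edgeR = 0.0139), while its relative BNIP3 stood at −0.06 (SE 0.1). The call of BCL2L12 was lost without NS replicates 1 or 3 or shACSS2 replicates 2 or 3 (log2 fold change 0.27 to 0.35, adjusted p from 0.0649 to 0.15) and with library totals (0.26, adjusted p = 0.0673). That of BNIP3L was lost without NS replicate 3 or shACSS2 replicate 2 (−0.38 and −0.31, adjusted p = 0.0641 and 0.0752).

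Of the 3 BH3-only genes outside the 10 members, none passed the test. BMF, which binds dynein light chain, was lower at 8.21 ± 1.44 against 11.1 ± 0.697 CPM in NS (SD, n = 3 each) with no overlap, but did not pass (−0.43 in log2 units, SE 0.159, adjusted p by edgeR = 0.0712). It did so with library totals (−0.51, adjusted p = 0.0429) and with the GC and length offset (−0.41, adjusted p = 0.0329). HRK stood at −0.04 (SE 0.124) and BIK at 0.22 (SE 0.423) in log2 units, BIK at about 1.06 CPM in NS. BCL2L13 and BNIP1 had 0.25 (SE 0.0983) and 0.32 (SE 0.129), BCL2L13 passing with the GC and length offset (0.32, adjusted p = 0.00442), and both passed without shACSS2 replicate 1 (0.27 and 0.37, adjusted p = 0.0296 and 0.0437), BNIP1 also without NS replicate 2 (0.45, adjusted p = 0.0391). BNIP2 and BECN1 had −0.06 (SE 0.11) and 0.07 (SE 0.103). BCL2L14 and BCL2L15 had 10 counts each over all libraries and were not tested.

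The 3′ UTRs of the members were searched for ATGCTCA and TGCTCAA, sequences which overlap in TGCTCA and which an earlier look at these fold changes had singled out among genes that fell, so the shares are a description. In 3 of the 10 members the longest annotated 3′ UTR held such a sequence, as did 18.0% of 13262 tested genes whose 3′ UTR had 50 bases or more. The 30 bases around the match in MCL1 and in BAX, on GRCh38 with the heptamer in capitals, show what was matched.
MCL1, chr1:150575450-150575479, minus strand: ttgtataggagtATGCTCActtaaatttac
BAX, chr19:48961198-48961227, plus strand: tgcctctggaatTGCTCAAgttcattgatg
Of the 3 members with a match (MCL1, BAX and BAK1) 0 fell and 1, BAK1, rose, and edgeR at an unadjusted p under 0.05, DESeq2 and voom also had 0 of them lower. Among all 2381 genes that held a heptamer, 24.2% fell and 3.15% rose, with a median log2 fold change of −0.16. Among the 10881 without it 6.76% fell and 9.52% rose, with a median of 0.05. The median 3′ UTR length was 3112 bases in genes that held a heptamer and 1159 bases in those without. The part of UTR length in these shares was not tested. PMAIP1 and BCL2L11, the other members that rose, held neither heptamer.

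Around the family, genes of the mitochondrial pathway moved in both directions. Downstream of the pore, among 12 release and apoptosome genes, 3 rose, 1 fell and 8 were not past the test. DFFA, the inhibitor of the nuclease that cuts DNA in dying cells, rose from 166 ± 2.85 to 236 ± 2.81 CPM (± SD of 3 libraries; 0.51 in log2 units, SE 0.0871, adjusted p by edgeR = 0.00137). ENDOG, a mitochondrial nuclease, and HTRA2, a mitochondrial protease, rose by 0.57 (SE 0.135) and 0.33 (SE 0.11) on the log2 scale. Of 5 tested inhibitors of apoptosis proteins, 2 rose and 2 fell. BIRC5, which encodes survivin, and BIRC3, a ubiquitin ligase of NF-κB signalling, had 0.44 (SE 0.109) and 1.00 (SE 0.279), BIRC3 from only 1.98 ± 0.122 CPM in NS. XIAP, which blocks caspases directly, and BIRC6 had −0.30 (SE 0.0917) and −0.53 (SE 0.109). Calls were lost without a library for ENDOG and BIRC5 (NS replicate 1 or 3), BIRC3 (those or shACSS2 replicate 1) and for HTRA2 and XIAP (any but shACSS2 replicate 1), at adjusted p from 0.0511 to 0.183. HTRA2 also lost it with library totals (0.26, adjusted p = 0.116), and both HTRA2 and XIAP with the replicate block (adjusted p = 0.0614 and 0.0543) and without the filter on low counts (0.0668 and 0.0606). XIAP lost it too with the GC and length offset and the block together (−0.20, adjusted p = 0.0514).

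On the outer membrane, 3 of 14 genes rose, 2 fell and 9 stayed below the threshold. VDAC1, the main channel of that membrane, rose from 361 ± 17.2 to 509 ± 33.7 CPM (± SD of 3 libraries), which edgeR put at 0.50 in log2 units (SE 0.092, adjusted p = 0.00236). VDAC2, the channel that holds BAK1 in place, rose by 0.40 on the log2 scale (SE 0.0916, adjusted p = 0.00863, lost without NS replicate 1 at 0.36 and 0.0819). TOMM22, an import receptor at which BAX can dock, had −0.53 (SE 0.109, adjusted p = 0.00455). MFN2, a mitofusin, had −0.37 (SE 0.1, adjusted p = 0.0209), lost on leaving out either NS replicate 1 or 3 or shACSS2 replicate 3 (adjusted p of 0.0536 to 0.104).

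Among transcription factors that act on family genes, 2 of 13 rose, 2 fell and 9 stayed below the threshold. STAT3 and E2F1 rose by 0.39 (SE 0.0968) and 0.44 (SE 0.118) on the log2 scale. MYCN fell by 1.14 on the log2 scale (SE 0.37) from a low 1.75 ± 0.313 CPM in NS (SD, n = 3). Calls were lost for STAT3 without any NS library or shACSS2 replicate 3, for E2F1 without NS replicates 1 or 3 or shACSS2 replicates 2 or 3, and for MYCN whichever library was left out and with DESeq2 (−1.14, adjusted p = 0.0879), the leave-outs at adjusted p from 0.0545 to 0.131.

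Among genes for the turnover of family proteins, 0 of 12 rose, 3 fell and 9 stayed below the threshold. DESeq2 and voom also had 0 higher, and at an unadjusted p under 0.05 edgeR had 1 higher. HUWE1, a ubiquitin ligase of MCL1, fell from 565 ± 45.1 to 421 ± 51.1 CPM (± SD of 3 libraries), which edgeR put at −0.42 in log2 units (SE 0.105, adjusted p = 0.0129). CUL5, a cullin, stood at −0.42 (SE 0.124). Calls were lost for HUWE1 without NS replicate 1 (−0.36, adjusted p = 0.0976) and with the GC and length offset (−0.19, adjusted p = 0.0571), and for CUL5 without any library but shACSS2 replicate 1 (adjusted p from 0.0631 to 0.121).

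In the list of kinases, phosphatases, caspases and adaptors that act on BH3-only proteins, 5 of 25 rose, 3 fell and 17 stayed below the threshold. The 3 falls held without each library in turn, but the 5 rises did not: none was left without NS replicate 1, 2 or 3 or shACSS2 replicate 3, 1 was left without shACSS2 replicate 2 or with library totals, and 4 were called without shACSS2 replicate 1. At an unadjusted p under 0.05 edgeR had 6 rises in this list, DESeq2 had 4 and voom 3. CASP2, an initiator caspase that can cut BID, fell by 1.43 on the log2 scale (SE 0.0987, adjusted p by edgeR = 1.95e-06). YWHAZ, a 14-3-3 protein that can hold phosphorylated BAD, fell from 942 ± 41.3 to 441 ± 28.3 CPM (± SD of 3 libraries), or −1.10 in log2 units (SE 0.0917). No other 14-3-3 gene in this list was called lower. GSK3B, a kinase that marks MCL1 for destruction, fell from 74.5 ± 4.62 to 38.5 ± 3.28 CPM (−0.95 in log2 units, SE 0.105). SFN, another 14-3-3 protein, rose by 1.14 (SE 0.338) from 0.786 ± 0.0895 CPM, and its call was lost without any library but shACSS2 replicate 1 (adjusted p from 0.0586 to 0.128) and with DESeq2 (1.16, adjusted p = 0.0654). Of the 14 genes that fell in the 7 lists outside the family, 1 of which is not described here, 10 held ATGCTCA or TGCTCAA in their 3′ UTR, among them BIRC6, TOMM22, HUWE1, CASP2, YWHAZ and GSK3B, as did 1 of the 20 that rose and 12 of the 68 not past the test.

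**Figure D4:**
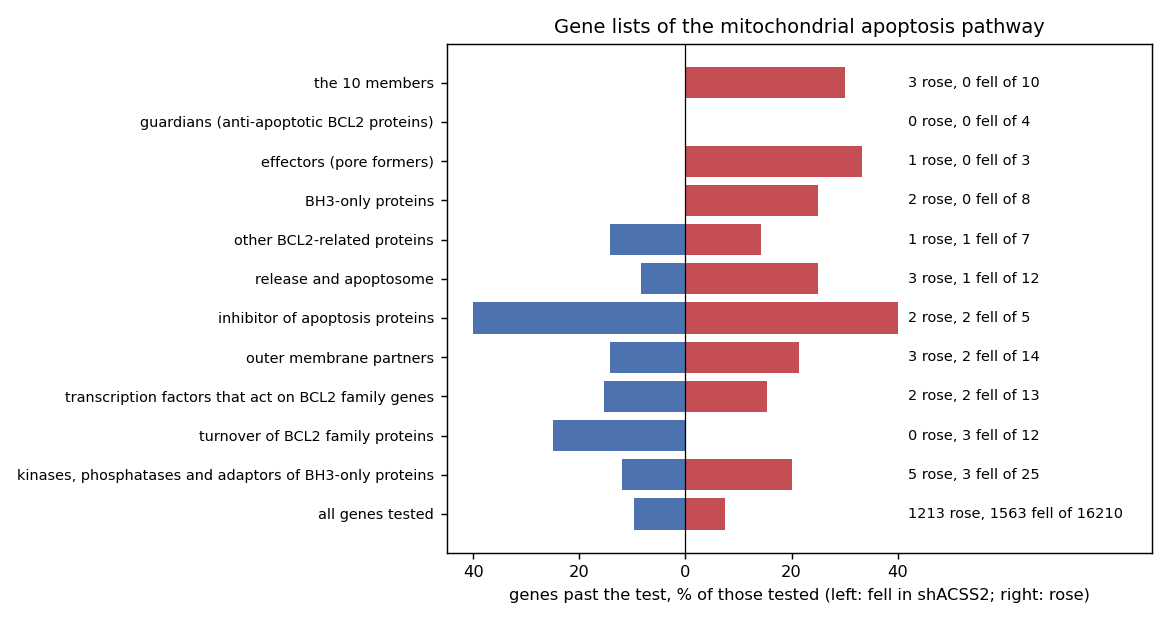
Share of tested genes past the edgeR test in each list (horizontal axis, percent, lower in shACSS2 to the left and higher to the right), with the counts printed at the right. The 10 members have 3 rises and 0 falls, while 5 of the 6 lists of the wider pathway shown hold both, against 7.48% higher and 9.64% lower over all genes.

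For each member past the test, the nearest patterns among 11894 genes of at least 5 CPM were sought by the root mean square distance of log2 CPM, centred on each gene's mean, over the 6 libraries. Nearest to PMAIP1 were MRS2, a mitochondrial magnesium channel (distance 0.0381), DNAJB9, an ER chaperone (0.0532), and YOD1, a deubiquitinase (0.0551). Nearest to BAK1 were PDIA3P1, a pseudogene that can share reads with PDIA3 (0.0333), ABHD6, a lipase (0.0417), and CDK8, a Mediator kinase (0.0443). Nearest to BCL2L11 were TBK1, a kinase of innate immunity (0.0336), PCGF6, a Polycomb protein (0.0366), and EZH2, the Polycomb methyltransferase (0.0382).

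**Figure D5:**
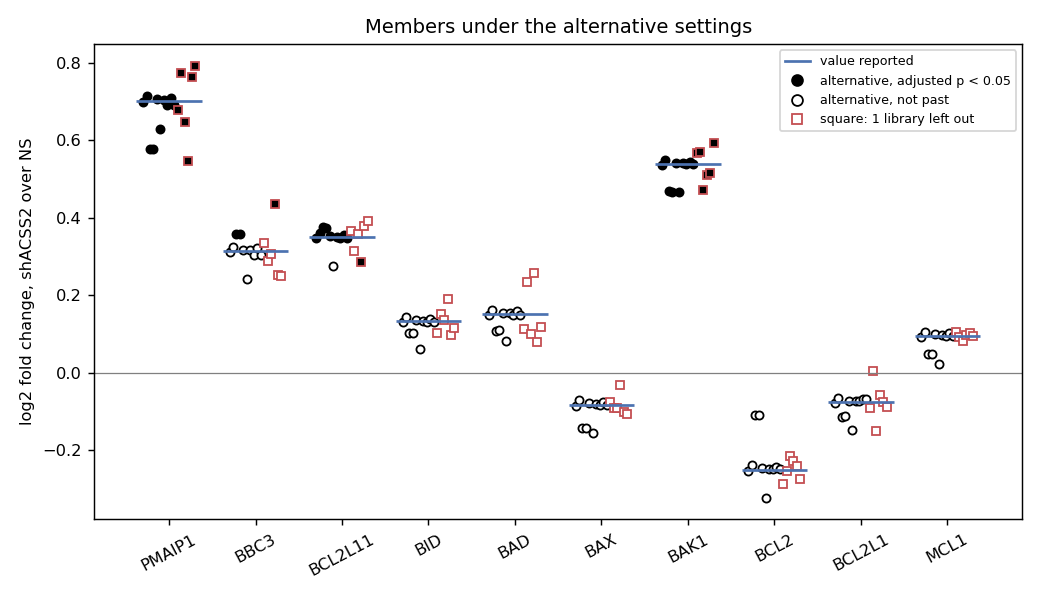
Log2 fold change of shACSS2 over NS (vertical axis) for each member as reported (line) and under the alternative settings (points, filled where the adjusted p is under 0.05; squares leave out 1 library). PMAIP1 and BAK1 are past the test at each point shown, BCL2L11 and BBC3 at some, and the other members at none.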

How the data were processed

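Values in the deposited table are whole-number read counts per gene, which the authors had not normalised, judging by library sums that all differ. Per the submitters' processing notes the tools, with no role stated, were HISAT2 2.0.5, fastp, DESeq2 (listed as 4.3.1) and featureCounts 1.5.0-p3, with build hg19. Strand option and treatment of multi-mapping reads: not given in the sources used here. Each of the 58735 identifiers was found in GENCODE v29, which is on GRCh38, and 27 names altered to dates by spreadsheet software were restored. Coordinates printed are GRCh38 positions from that annotation or from RefSeq.

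The test on these counts was the quasi-likelihood F test of edgeR 4.0.16 (R 4.3.3) with TMM factors, its default filter on low counts, robust dispersion and group as the only term. P-values were adjusted by Benjamini-Hochberg over the 16210 genes kept and read at 0.05. Standard errors divide the size of the log2 fold change by the root of F, and 95% intervals use the t distribution. On counts simulated for this comparison (15943 genes) the test recovered 75 of 96 genes changed 2-fold and 52 of 99 changed 1.5-fold. It made 9 false calls there. No other genes tested there were changed, while 2776 genes passed the test in the data. How the recovery and the false calls would change with more changed genes was not tested. Nor was a deviation linked to GC content, like that of shACSS2 replicate 1. Depth of 16617885 to 20831599 counts makes 3 counts 0.144 to 0.181 CPM, a floor for counting error only. No pair of libraries of a group agreed within counting noise (chi-square per degree of freedom 4.28 to 17.3, the highest values with shACSS2 replicate 1), so none was merged as a repeated deposit. This does not show that they came from separate cultures. GC content is that of the longest annotated transcript.

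All 10 members are named, as are the measured genes of the other family lists. From each other list up to 4 genes past the test with the smallest p and a mean of at least 1 CPM are named, or up to 2 where none passed, with ACSS2 and the 3 nearest genes of each member past the test. Some genes that this rule names, 1 of the lists and 1 promoter motif are not reported here. The members and the 11 lists were chosen with earlier results of these data known. Alternatives were other scalings and filters, DESeq2 1.42.0, limma 3.58.1 (voom), a replicate block, offsets for GC content and length, omission of each library and an adjusted p of 0.01. Python 3.11.15 and matplotlib 3.10.9 were used for tables and figures.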

Additional observations from a re-analysis of the deposited data

How the results depend on the processing

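The rises of PMAIP1 and BAK1 stayed past the test under each of the 17 alternatives run, at log2 fold changes of 0.55 to 0.79 and 0.47 to 0.59. BCL2L11 lost its call under 7 of 17, at 0.28 to 0.39 over all alternatives. The count of members past the test was 2 to 4, and ACSS2 stayed between −2.06 and −1.85. Genes past the test numbered 4385 with the GC and length offset, 4557 with that offset and the replicate block, 1010 at an adjusted p of 0.01, and 1018 to 3931 when a library was left out. Of the genes called, 43.7% were higher as reported, 25.8% with library totals and 54.1% with the offset and the replicate block. That offset removes any trend with base composition or length, including one between the groups. Of the 123 listed genes outside the members, 114 were tested. Of these, 36 were past the test as reported, against 17.1% of all genes tested, and 12 were at an adjusted p of 0.01. When a library was left out 12 to 46 were past the test (12 without NS replicate 1, 13 without NS replicate 3, 21 without shACSS2 replicate 2, 20 without shACSS2 replicate 3). Over the 7 lists outside the family, 20 rises became 4 to 22 and 14 falls became 7 to 19 when a library was left out.

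Some directions turned. With the GC and length offset HRK was at 0.0035 and BNIP2 at 0.015, and with the offset and the replicate block at 0.0012 and 0.016. Leaving out a library, BCL2L1 ranged from −0.15 to 0.0051, BCL2L2 from −0.026 to 0.19, BIK from −0.054 to 0.77, BNIP3 from −0.11 to 0.022 and HRK from −0.12 to 0.042. The causes were not tested. Replicate numbers are shared by the groups, but same-numbered libraries did not deviate together (r across genes −0.0428, −0.0664 and 0.112), and the highest r of each NS library was 0.0381, 0.158 and 0.112, with a same-numbered partner only for replicate 3. With the replicate block 2923 genes and 3 members were past the test. Each member matched 1 row, so adding rows of a shared symbol changed nothing. Depth limits BCL2A1, BCL2L10, BCL2L14 and BCL2L15, which were not tested.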
